A study of Mus musculus with 15 samples.

Results

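Aminoacyl-tRNA synthetases attach each amino acid to its transfer RNA, and their mRNAs were examined here in mouse macrophages exposed to asbestos or to cleavage fragments of the same mineral. The genes were chosen by name. Of 37 listed symbols 36 were present among 10653 genes in the deposited table, 20 of them for cytosolic and 16 for mitochondrial enzymes, and the methionyl enzyme of the cytosol stands there as Mars. All 36 passed the filter on low values and were tested, and none was at 0 in any library.

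The cells were MPI cells, a self-renewing line of macrophages from fetal liver of female C57BL6/J mice that depends on GM-CSF and is used as a model of alveolar macrophages. There were 5 groups of 3 libraries, all collected at 24 h. They were riebeckite asbestos at 9 µg/cm2, riebeckite cleavage fragments at 40 µg/cm2, tremolite asbestos at 5 µg/cm2, tremolite cleavage fragments at 60 µg/cm2, and untreated cells, which the sample descriptions also call a vehicle control. Doses were matched by particle surface area, so mass differs between all particles and cannot be told apart from particle type. Every group shared the same line, sex, strain and GM-CSF, and whether a group's 3 libraries stem from separate cultures is not given in the labels. The p-values therefore reflect only the spread among these libraries, which may be technical.

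As a rule each amino acid has its own synthetase, though Eprs encodes a fused enzyme for glutamate and proline. Most cells carry a cytosolic set for the general proteome and a second, nuclear-encoded set that is imported into mitochondria for the few proteins made there. In mammals the genes for the glycyl (Gars) and lysyl (Kars) enzymes supply both compartments, and mitochondria make glutaminyl-tRNA through an amidotransferase instead of a synthetase. Gars and Kars are counted in the cytosolic set here. Many cytosolic synthetase genes are known targets of ATF4, the transcription factor of the amino acid and integrated stress responses, and a group of cytosolic synthetases is held in the multisynthetase complex with the scaffold proteins AIMP1, AIMP2 and EEF1E1.

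In untreated cells the cytosolic set was the more abundant one. Values are FPKM, which are scaled to length and to the library. A gene value can lie well below that of the listed transcript, to a degree that differs between genes. For Eprs in untreated library 1 it was 9.35 FPKM against 33.5 FPKM for its only listed transcript, whereas for Nars both were 81.0 FPKM. The order of genes by level is therefore approximate. Cytosolic genes averaged between 6.95 and 82.0 FPKM with a median of 18.6, and mitochondrial genes between 1.10 and 11.4 FPKM with a median of 2.40. All 20 cytosolic genes but 3 of 16 mitochondrial genes averaged at least 5 FPKM.

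Nars (asparagine) led with 82.0 ± 1.11 FPKM (SD, n = 3), followed by Gars (glycine) with 74.4 ± 2.33, Rars (arginine) with 43.8 ± 2.22 and Hars (histidine) with 39.9 ± 0.830 FPKM. The libraries of these 4 genes did not overlap from one to the next. This order holds for the gene values. By their only listed transcripts Gars, at 100, 97.1 and 94.3 FPKM, stood above Nars, at 81.0, 81.8 and 83.2 FPKM. At the low end of the cytosolic set, Farsa, the alpha subunit of the phenylalanyl enzyme, had 6.95 ± 0.771 FPKM, whereas Farsb, the beta subunit of the same enzyme, had 26.0 ± 0.622 FPKM. Rars2 with 11.4 ± 0.522, Iars2 with 10.5 ± 0.678 and Hars2 with 8.88 ± 0.229 FPKM were the mitochondrial genes above 5 FPKM, and the libraries of Rars2 and Iars2 overlapped. Pars2 with 1.13 ± 0.114 and Ears2 with 1.10 ± 0.248 FPKM were the lowest and overlapped as well.

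Summed over the 20 cytosolic genes, the level was 458 ± 2.27 FPKM with riebeckite asbestos, 428 ± 8.30 with its fragments, 458 ± 7.90 with tremolite asbestos, 447 ± 2.94 with its fragments, and 490 ± 5.37 FPKM in untreated cells (SD, n = 3 each). The highest of the 12 exposed libraries, at 466 FPKM, lay under the lowest untreated library, at 484 FPKM. The sum over the 16 mitochondrial genes was 57.8 ± 0.659, 54.4 ± 3.32, 55.4 ± 1.70 and 54.3 ± 3.01 FPKM in the exposed groups in the same order and 60.0 ± 1.71 FPKM in untreated cells. Here the exposed and untreated libraries overlapped, and the ratio of the cytosolic to the mitochondrial sum ranged between 7.46 and 8.70 over all 15 libraries. In bulk RNA, less mRNA per cell and fewer cells of a type cannot be told apart.

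Against untreated cells, more synthetase mRNAs were called lower than higher. Tests used limma on log2(FPKM + 1), a scale that understates changes of genes with low values, with Benjamini-Hochberg adjustment over all 10616 genes tested and a threshold of 0.05. After riebeckite asbestos 3 of 20 cytosolic genes rose and 9 fell, and 2 of 16 mitochondrial genes rose and 4 fell, where 21.0% of all genes tested rose and 24.3% fell. After riebeckite fragments 12 of 20 cytosolic and 4 of 16 mitochondrial genes fell and none rose, against 15.3% of all genes higher and 23.1% lower. After tremolite asbestos 8 cytosolic and 4 mitochondrial genes fell and none rose, against 10.0% and 13.9% of all genes. After tremolite fragments 10 cytosolic and 5 mitochondrial genes fell and none rose, against 12.5% and 15% of all genes.

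At an unadjusted p under 0.05, limma counted 0 higher members after riebeckite fragments, 1 (Cars) after tremolite asbestos and 2 (Aars and Cars) after tremolite fragments, where 18.4%, 13.9% and 16.4% of all genes were higher at that p. With libraries rescaled to the nuclear genes, an alternative chosen after seeing the data, the splits after riebeckite asbestos became 1 higher and 11 lower in the cytosolic set and 1 higher and 5 lower in the mitochondrial set. The same rescaling moved all genes to 16.7% higher and 29.7% lower, against 21.0% and 24.3% without it. With TMM factors or quantile normalization 1 cytosolic gene (Cars) was higher and 7 were lower after tremolite asbestos, with 12.4% and 10.6% of all genes higher and lower under TMM factors and 11.0% and 13.1% under quantile normalization. Cytosolic genes were the more abundant, so the shares over the 6679 genes averaging 5 FPKM or more are given as well. Of these, 24.5% were higher and 25.7% lower for riebeckite asbestos, 18.0% and 26.4% for its fragments, 12.6% and 16.4% for tremolite asbestos, and 15% and 17.9% for its fragments.

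The share of the cytosolic set that was lower was 45%, 60%, 40% and 50% in the 4 comparisons in the same order, and the share of the mitochondrial set was 25%, 25%, 25% and 31.2%. After riebeckite asbestos and its fragments the mitochondrial share was near that of all genes, at 24.3% and 23.1%. Over the cytosolic genes the median log2 fold change was -0.11 for riebeckite asbestos, -0.21 for its fragments, -0.10 for tremolite asbestos and -0.16 for its fragments. Over the mitochondrial genes it was -0.021, -0.073, -0.064 and -0.068, and over all genes tested it was -0.017, -0.044, -0.033 and -0.023. The difference between the compartments was not tested, and the mitochondrial genes, at lower FPKM, had the wider standard errors. The 4 comparisons share the untreated libraries.

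**Figure D1:**
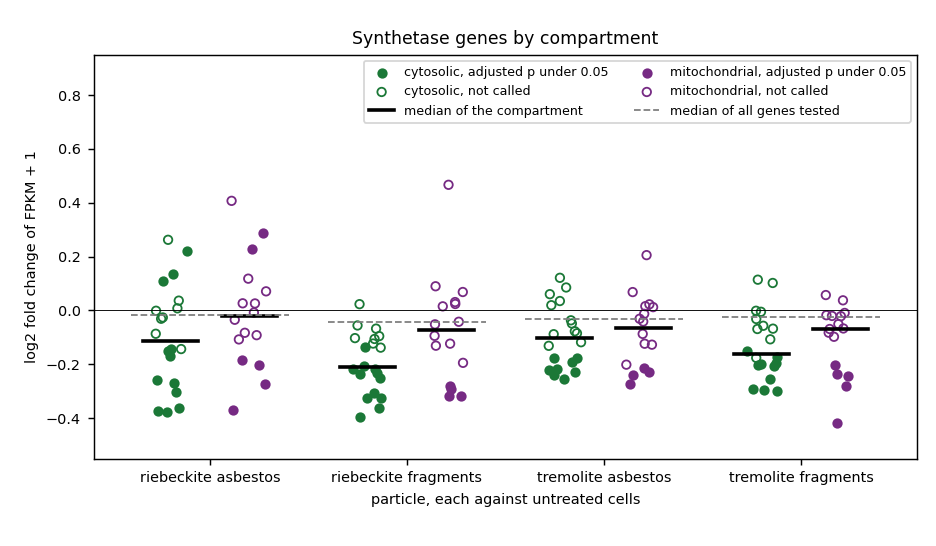
Log2 fold change of FPKM + 1 (vertical axis) of each synthetase gene against untreated cells after each particle (horizontal axis), cytosolic genes in green and mitochondrial genes in purple, filled where the adjusted p was under 0.05. Bars mark the compartment medians, -0.11 and -0.021 after riebeckite asbestos and -0.21 and -0.073 after riebeckite fragments, and dashed lines the median of all genes tested.

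Across the 4 comparisons, 7 cytosolic genes (Dars, Farsb, Gars, Iars, Kars, Lars and Tars) and 2 mitochondrial genes (Mars2 and Tars2) were lower after every particle. A further 5 cytosolic genes (Eprs, Hars, Nars, Vars and Yars) and 4 mitochondrial genes (Cars2, Hars2, Pars2 and Rars2) were lower after 1 to 3 of them. The share of all genes lower after every particle was not computed, so these counts have no background beside them. With the untreated libraries shared, joint calls are not independent. Aars, Cars, Sars, Aars2 and Yars2 were higher after riebeckite asbestos and were called after no other particle. Another 5 cytosolic genes (Farsa, Mars, Qars, Rars and Wars) and 8 mitochondrial genes (Ears2, Fars2, Iars2, Lars2, Nars2, Sars2, Vars2 and Wars2) were called in no comparison with untreated cells.

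**Figure D2:**
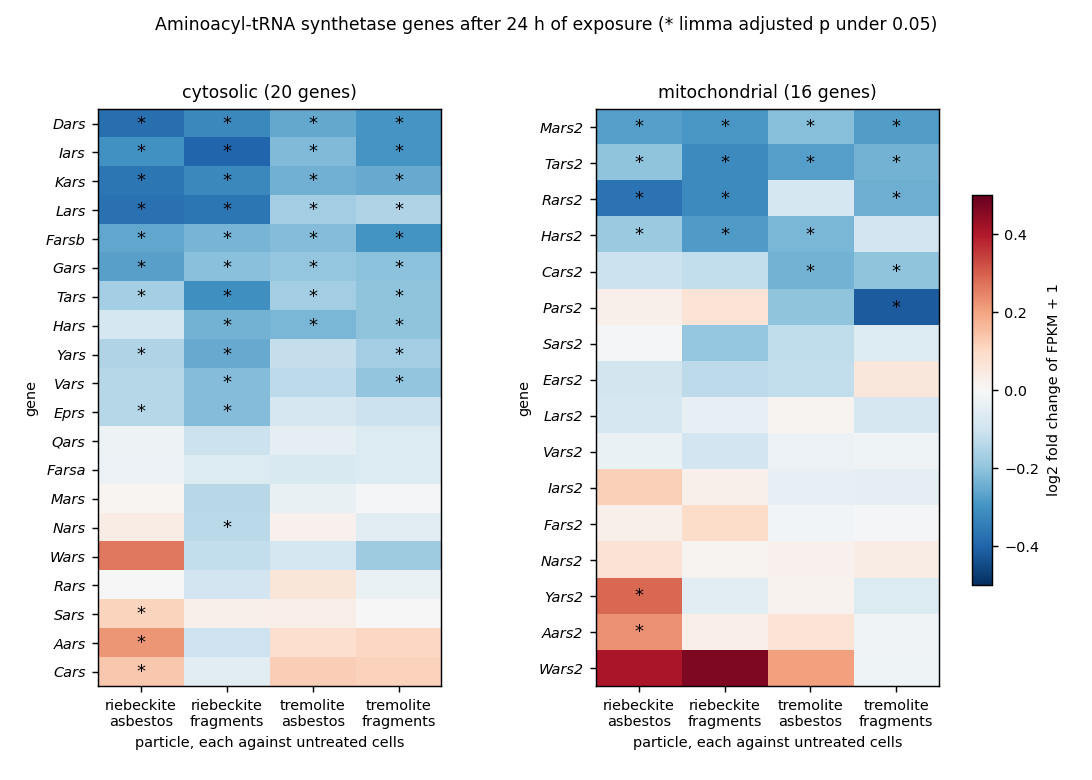
Log2 fold change of FPKM + 1 for each of the 20 cytosolic (left) and 16 mitochondrial (right) synthetase genes (rows) after each particle against untreated cells (columns), with an asterisk where the limma adjusted p was under 0.05. Of the 20 cytosolic rows 7 are marked lower in all 4 columns, and the share of all genes lower in all 4 was not computed. The unmarked Wars2 row is dark red after both riebeckite particles (0.41 and 0.47), against untreated libraries of 2.16, 1.74 and 0.537 FPKM.

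In the multisynthetase complex, 5 of 8 synthetase genes (Dars, Eprs, Iars, Kars and Lars) fell after riebeckite asbestos and after riebeckite fragments, and 4 of 8 (all but Eprs among these) fell after each tremolite particle. The other members of the complex, Mars, Qars and Rars, were not called. Of the 12 cytosolic genes outside the complex 3 rose and 4 fell after riebeckite asbestos, 7 fell with its fragments, 4 with tremolite asbestos and 6 with fragments of tremolite. The median log2 fold change of the genes of the complex was -0.22, -0.27, -0.13 and -0.13 in the order above, and that of the genes outside it -0.059, -0.17, -0.10 and -0.17. Of all genes tested 24.3%, 23.1%, 13.9% and 15% were lower in the same order, and 21.0% were higher after riebeckite asbestos. Among genes averaging 5 FPKM or more 25.7%, 26.4%, 16.4% and 17.9% were lower. The split by complex was made after the values were seen.

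Dars, which charges tRNA with aspartate, had 11.1, 10.7 and 11.1 FPKM with riebeckite asbestos, 11.0, 11.6 and 11.7 with its fragments, 11.6, 12.5 and 12.1 with tremolite asbestos, 11.3, 11.2 and 12.7 with its fragments, and 14.7, 14.1 and 14.9 FPKM in untreated cells. Each of the 12 exposed libraries lay below each untreated library, and the log2 fold change was -0.38 for riebeckite asbestos, -0.32 for its fragments, -0.25 for tremolite asbestos and -0.29 for its fragments (SE 0.048 for each), with adjusted p-values of 2.78e-05, 0.000135, 0.00178 and 0.000467. Kars, the lysyl enzyme of both compartments, had 15.4, 15 and 14.6 FPKM with riebeckite asbestos, 15.5, 15.3 and 15.4 with its fragments, 15.6, 16.7 and 16.9 with tremolite asbestos, 17.0, 15.7 and 16 with its fragments, and 19.1, 18.8 and 20.6 FPKM in untreated cells. Again no exposed library reached the untreated range. Its log2 fold change was -0.36 for riebeckite asbestos, -0.32 for its fragments, -0.24 for tremolite asbestos and -0.25 for its fragments (SE 0.043 for each), with adjusted p-values of 1.69e-05, 5.81e-05, 0.00134 and 0.000667.

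Lars, the leucyl enzyme, which also serves as a leucine sensor for mTORC1 in human cells, had 18.7, 18.6 and 18.4 FPKM with riebeckite asbestos, 17.7, 19.1 and 19.5 with its fragments, 21.1, 20.8 and 22.5 with tremolite asbestos, 22.1, 21.3 and 22.2 with its fragments, and 25.1, 24.4 and 23.5 FPKM in untreated cells. Untreated libraries were the highest and tremolite libraries lay between them and the riebeckite libraries, with no overlap between these 3 sets. For Lars the log2 fold change was -0.37 for riebeckite asbestos, -0.36 for its fragments, -0.17 for tremolite asbestos and -0.15 for its fragments (SE 0.041 for each), with adjusted p-values of 8.29e-06, 1.50e-05, 0.00744 and 0.0162. The call after tremolite fragments was lost when tremolite fragments library 2, or untreated library 1 was left out (adjusted p = 0.0647 to 0.0671). Iars, the isoleucyl enzyme, had 16.5, 16.4 and 16.8 FPKM with riebeckite asbestos, 15.4, 15.8 and 15.2 with its fragments, 19.1, 16.9 and 16.8 with tremolite asbestos, 16.1, 16.5 and 17.5 with its fragments, and 19.2, 21.4 and 21.4 FPKM in untreated cells. The untreated libraries were above the exposed ones, although tremolite asbestos library 1 and untreated library 1 lay close together. Its log2 fold change was -0.30 for riebeckite asbestos, -0.40 for its fragments, -0.22 for tremolite asbestos and -0.29 for its fragments (SE 0.054 for each), with adjusted p-values of 0.000535, 7.09e-05, 0.00917 and 0.00119. In a fit of only the groups compared, the adjusted p of Iars after tremolite asbestos was 0.0633.

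Eprs, a fused enzyme for glutamate and proline, fell by 0.14 after riebeckite asbestos (adjusted p = 0.0222) and by 0.22 after riebeckite fragments (0.00208) on the log2 scale. The first of these calls was lost when riebeckite asbestos library 1 or 3, or untreated library 2 or 3 was left out (adjusted p = 0.0505 to 0.0827). After tremolite the values were -0.08 and -0.11, not called. Mars, Qars and Rars, for methionine, glutamine and arginine, ranged between -0.14 and 0.061 over the 4 comparisons. After riebeckite fragments limma called each of these 3 lower in a single leave-one-out fit, Mars when riebeckite fragments library 3 was left out (adjusted p = 0.0162), Qars when untreated library 1 was left out (adjusted p = 0.0330) and Rars when untreated library 1 was left out (adjusted p = 0.0364).

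**Figure D3:**
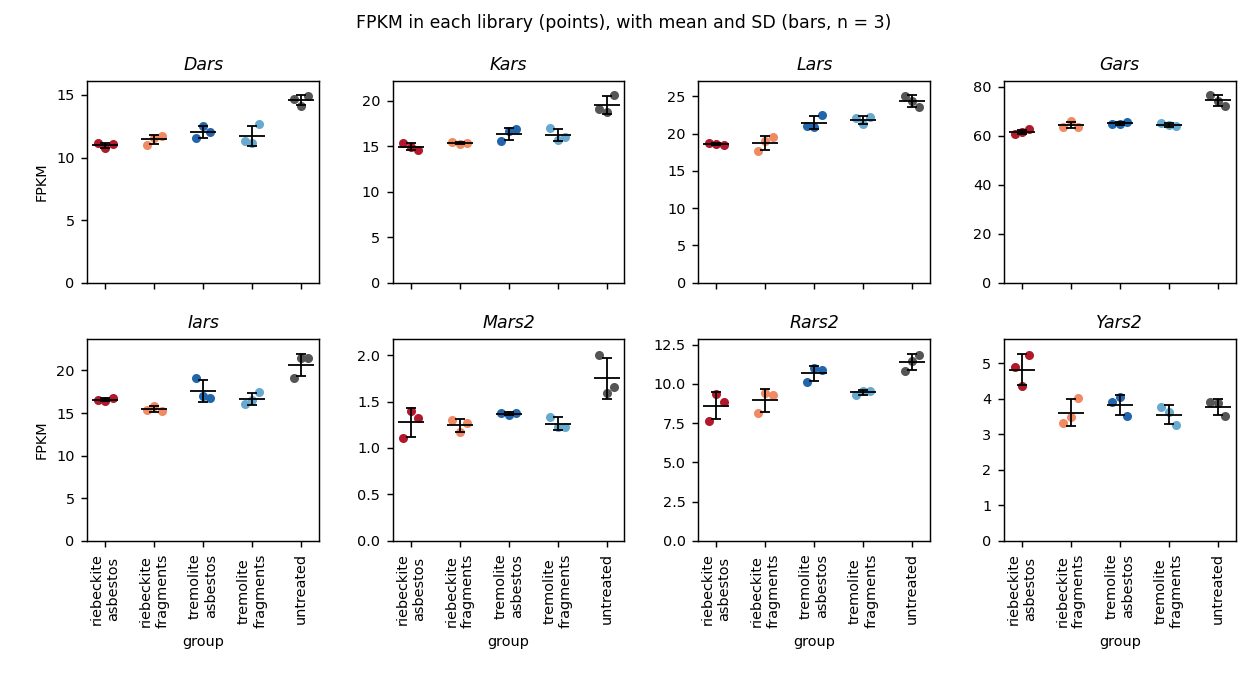
FPKM (vertical axes, from 0) of 8 synthetase genes in each library, by group, with horizontal bars for the mean and error bars for the SD of 3 libraries. For Dars, Kars, Lars, Gars and Mars2 all 12 exposed libraries lie below the 3 untreated ones, while Yars2 is highest after riebeckite asbestos at 4.36 to 5.21 FPKM.

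Outside the complex, Gars, which charges glycine in both compartments, had 60.7, 61.4 and 62.6 FPKM with riebeckite asbestos, 63.5, 65.8 and 63.6 with its fragments, 64.6, 64.9 and 65.5 with tremolite asbestos, 65.1, 64.2 and 63.8 with its fragments, and 76.8, 74.3 and 72.2 FPKM in untreated cells. The exposed libraries, between 60.7 and 65.8 FPKM, all lay below the untreated ones, and the log2 fold change was -0.27 for riebeckite asbestos, -0.21 for its fragments, -0.19 for tremolite asbestos and -0.21 for its fragments (SE 0.028 for each), with adjusted p-values of 3.94e-06, 5.55e-05, 0.000224 and 9.10e-05. Together with Dars and Kars, Gars kept its 4 calls in every alternative that set no minimum size. With a minimum of 0.3 on the log2 scale Gars lost all 4, and Dars and Kars lost both tremolite calls. Farsb had 22, 21.0 and 21.7 FPKM with riebeckite asbestos, 21.6, 22.5 and 21.9 with its fragments, 22, 21.4 and 23.5 with tremolite asbestos, 20.9, 20.3 and 21.6 with its fragments, and 26.2, 25.4 and 26.6 FPKM in untreated cells. Exposed and untreated libraries did not overlap, and the log2 fold change was -0.26 for riebeckite asbestos, -0.23 for its fragments, -0.22 for tremolite asbestos and -0.30 for its fragments (SE 0.039 for each), with adjusted p-values of 0.000117, 0.000358, 0.00128 and 6.70e-05. Farsa, the partner subunit, was not called, at -0.03, -0.07, -0.08 and -0.07 with a standard error of 0.086, wider than the 0.039 of Farsb. The difference between the subunits was not tested. The Farsb locus overlaps exons of Sgpp2 on the opposite strand over 248 bases, and Sgpp2 is not among the genes of the deposited table. Whether strand was used in counting is not given in the sources used here.

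Tars, the threonyl enzyme, had 15.4, 14.9 and 16.4 FPKM with riebeckite asbestos, 15.1, 14.7 and 12.5 with its fragments, 15.4, 15.8 and 15.2 with tremolite asbestos, 15.8, 14.9 and 14.9 with its fragments, and 17.2, 17.1 and 18.5 FPKM in untreated cells. All exposed libraries were below the untreated ones, with a log2 fold change of -0.17 for riebeckite asbestos, -0.30 for its fragments, -0.18 for tremolite asbestos and -0.20 for its fragments (SE 0.06 for each), with adjusted p-values of 0.0341, 0.00125, 0.0496 and 0.0235. Only the call after riebeckite fragments was kept without each library in turn. The call after riebeckite asbestos was lost when riebeckite asbestos library 1 or 2, or untreated library 3 was left out (adjusted p = 0.0829 to 0.129), that after tremolite fragments when tremolite fragments library 2 or 3, or untreated library 3 was left out (adjusted p = 0.0718 to 0.0953), and that after tremolite asbestos when any of the 6 libraries compared was left out (adjusted p = 0.0704 to 0.170).

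Hars fell by 0.24 with riebeckite fragments, 0.23 with tremolite asbestos and 0.20 with its fragments on the log2 scale (adjusted p = 0.000276, 0.000787 and 0.00136). After riebeckite asbestos the value was -0.09 (adjusted p = 0.0823), past the threshold when riebeckite asbestos library 1 was left out (adjusted p = 0.0485). Nars, the member with the highest gene value in untreated cells, fell by 0.13 after riebeckite fragments (adjusted p = 0.00167) and stood between -0.057 and 0.037 after the other particles. Yars, the tyrosyl enzyme, fell by 0.15 after riebeckite asbestos (adjusted p = 0.0361), 0.25 after riebeckite fragments (0.00215) and 0.17 after tremolite fragments (0.0277). The first of these was lost when riebeckite asbestos library 1 or 2, or untreated library 2 or 3 was left out (adjusted p = 0.0578 to 0.157), and the last when tremolite fragments library 1 or 3, or untreated library 2 was left out (adjusted p = 0.0581 to 0.124).

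Vars, the valyl enzyme, fell by 0.22 after riebeckite fragments (adjusted p = 0.0128) and by 0.20 after tremolite fragments (0.0279). The first call was lost when untreated library 2 was left out (adjusted p = 0.0634) and the second when tremolite fragments library 1 or 3, or untreated library 1 or 2 was left out (adjusted p = 0.0737 to 0.121). After riebeckite asbestos Vars stood at -0.14 (adjusted p = 0.0712) and was called lower when riebeckite asbestos library 1, or untreated library 3 was left out (adjusted p = 0.0228 to 0.0256).

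Aars, Cars and Sars were the cytosolic genes that rose after riebeckite asbestos, and they are described by their values because they rose, not by the rule on size. Aars, the alanyl enzyme, had 23.1, 22.9 and 23.3 FPKM with riebeckite asbestos, 17.5, 18.1 and 19.2 with its fragments, 20.1, 20.9 and 21.9 with tremolite asbestos, 20.4, 21.2 and 22 with its fragments, and 20.1, 20.5 and 18.5 FPKM in untreated cells. The riebeckite asbestos libraries were the 3 highest of all 15, and riebeckite fragment libraries were among the lowest. Against untreated cells the log2 fold change after riebeckite asbestos was 0.22 ± 0.047 (SE, adjusted p = 0.00184). After the other particles it was -0.10, 0.09 and 0.10, none of them called.

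Cars, the cysteinyl enzyme, had 9.44, 9.41 and 8.85 FPKM with riebeckite asbestos, 7.37, 8.28 and 8.29 with its fragments, 8.98, 9.08 and 9.36 with tremolite asbestos, 9.04, 8.82 and 9.41 with its fragments, and 8.29, 8.46 and 8.21 FPKM in untreated cells. The riebeckite asbestos libraries and both tremolite groups lay above the untreated libraries, and riebeckite fragment libraries overlapped them. The log2 fold change after riebeckite asbestos was 0.13 ± 0.046 (SE, adjusted p = 0.0302), lost when riebeckite asbestos library 1 or 2, or untreated library 1 or 3 was left out (adjusted p = 0.0669 to 0.0927). It was 0.12 after tremolite asbestos and 0.11 after tremolite fragments, with adjusted p-values of 0.0750 and 0.0848. With TMM factors these p-values were 0.0245 and 0.0400, and with quantile normalization 0.0238 and 0.0298.

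Sars, the seryl enzyme, had 29.2, 29.5 and 29.7 FPKM after riebeckite asbestos and 27.0, 27.4 and 27.3 FPKM in untreated cells. These did not overlap, and the log2 fold change was 0.11 ± 0.035 (SE, adjusted p = 0.0207), lost when riebeckite asbestos library 3, or untreated library 1 was left out (adjusted p = 0.0569 to 0.0584). The calls of Cars and Sars after riebeckite asbestos also depended on library scaling. Rescaled to the nuclear genes, their log2 fold changes were 0.09 and 0.06 (adjusted p = 0.204 and 0.235). Transcripts of the mitochondrial genome, which this rescaling leaves out, made up 6.44 ± 0.419% of the summed FPKM after riebeckite asbestos and 8.65 ± 0.181% in untreated cells.

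Wars, the tryptophanyl enzyme, which interferon-gamma induces in human cells, was spread within the riebeckite asbestos and untreated groups. It had 10.0, 14.7 and 13.4 FPKM with riebeckite asbestos, 8.97, 9.75 and 9.47 with its fragments, 9.86, 10.0 and 9.07 with tremolite asbestos, 9.38, 8.82 and 8.85 with its fragments, and 8.50, 10.0 and 12.8 FPKM in untreated cells. The riebeckite asbestos libraries overlapped the untreated and tremolite asbestos libraries and lay above those of both fragment groups. Against untreated cells the log2 fold change after riebeckite asbestos of 0.26 ± 0.13 (SE) was not called (adjusted p = 0.123). It was called higher when riebeckite asbestos library 1, or untreated library 3 was left out (adjusted p = 0.0144 to 0.0182). Ifit1, an interferon-induced gene, had 11.5, 30.3 and 3.98 FPKM after riebeckite asbestos and 16.1, 12.6 and 12.7 FPKM in untreated cells. It was spread after riebeckite asbestos, where the same library was the highest for Ifit1, at 30.3 FPKM, and for Wars, at 14.7 FPKM. In untreated cells the highest library of Ifit1 was the lowest one for Wars. The part of interferon-induced transcription in the Wars values was not tested.

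Promoter sequences of RefSeq (GRCm38.p6, 250 bases before to 50 after the start) were present for 27 of the 36 members, 13 cytosolic and 14 mitochondrial, and were searched on both strands for TGATGNAA, the core of the C/EBP-ATF element through which ATF4 acts in its known targets. The letters were found in 5 of 13 cytosolic promoters (Aars, Gars, Iars, Tars and Yars) and in 0 of 14 mitochondrial promoters, where 3.97% of 32851 promoters held them. The 5 windows are printed because the same letters stood near the starts of genes whose mRNA moved in opposite directions, with Aars higher and Gars, Iars, Tars and Yars lower after riebeckite asbestos. The calls of Tars and Yars there depended on single libraries, as given above. Capitals mark the letters of the element, read on either strand.
Aars, chr8:111033592-111033891 (+ strand): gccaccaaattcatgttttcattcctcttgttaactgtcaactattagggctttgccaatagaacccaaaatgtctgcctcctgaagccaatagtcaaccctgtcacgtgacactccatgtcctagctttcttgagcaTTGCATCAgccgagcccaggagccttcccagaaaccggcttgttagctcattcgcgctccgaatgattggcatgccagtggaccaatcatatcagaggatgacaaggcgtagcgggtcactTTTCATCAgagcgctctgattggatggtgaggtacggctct
Gars, chr6:55037751-55038050 (+ strand): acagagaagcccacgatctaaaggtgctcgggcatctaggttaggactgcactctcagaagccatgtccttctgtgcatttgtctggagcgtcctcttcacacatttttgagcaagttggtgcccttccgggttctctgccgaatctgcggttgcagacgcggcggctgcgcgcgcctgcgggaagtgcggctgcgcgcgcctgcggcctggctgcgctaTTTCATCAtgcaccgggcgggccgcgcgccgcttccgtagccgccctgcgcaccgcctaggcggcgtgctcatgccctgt
Iars, chr13:49681880-49682179 (+ strand): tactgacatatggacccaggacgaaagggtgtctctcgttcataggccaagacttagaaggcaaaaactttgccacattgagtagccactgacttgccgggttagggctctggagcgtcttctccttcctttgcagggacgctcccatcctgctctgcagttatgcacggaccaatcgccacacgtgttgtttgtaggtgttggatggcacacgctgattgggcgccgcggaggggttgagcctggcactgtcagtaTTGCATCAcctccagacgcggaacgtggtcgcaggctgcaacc
Tars, chr15:11399609-11399908 (- strand): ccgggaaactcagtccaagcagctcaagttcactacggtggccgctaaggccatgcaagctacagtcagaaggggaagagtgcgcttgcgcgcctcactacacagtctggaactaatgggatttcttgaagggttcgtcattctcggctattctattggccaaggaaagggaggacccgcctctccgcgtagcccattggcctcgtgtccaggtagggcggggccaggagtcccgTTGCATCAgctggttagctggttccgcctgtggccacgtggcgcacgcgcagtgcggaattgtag
Yars, chr4:129189653-129189952 (+ strand): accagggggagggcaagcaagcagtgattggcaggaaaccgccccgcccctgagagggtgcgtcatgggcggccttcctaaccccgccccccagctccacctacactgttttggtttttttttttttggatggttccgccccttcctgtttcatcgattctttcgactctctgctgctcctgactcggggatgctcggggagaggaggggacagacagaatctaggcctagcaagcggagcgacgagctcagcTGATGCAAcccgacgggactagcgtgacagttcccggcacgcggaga

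Aars held the element at 2 places, as TTGCATCA from position -112 and as TTTCATCA from position 9, counted from the RefSeq start. Gars held TTTCATCA from position -30 and Tars TTGCATCA from position -15, and in Iars and Yars it began at positions 7 and 3. The letters CACGTG, the E-box bound by MYC and by USF and TFE proteins, were in 4 of 13 cytosolic promoters (Aars, Farsb, Iars and Tars) and in 1 of 14 mitochondrial promoters (Ears2), against 7.15% of all promoters, and did not overlap the first element. A match describes the letters of these windows and nothing more. The promoters of Cars, Hars, Hars2, Lars, Nars, Pars2, Rars, Vars and Wars were not analysed here.

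Among the mitochondrial enzymes, 4 of 16 genes fell after riebeckite asbestos (Hars2, Mars2, Rars2 and Tars2). This share of 25% was near the 24.3% of all genes tested that were lower. Rars2, the arginyl enzyme, with the highest mean gene value of the set in untreated cells, had 7.65, 9.36 and 8.85 FPKM with riebeckite asbestos, 8.13, 9.44 and 9.29 with its fragments, 10.1, 11.0 and 10.9 with tremolite asbestos, 9.29, 9.55 and 9.57 with its fragments, and 10.8, 11.5 and 11.9 FPKM in untreated cells. Both riebeckite groups and the tremolite fragment group lay below the untreated libraries, and tremolite asbestos overlapped them. Its log2 fold change was -0.37 for riebeckite asbestos (adjusted p = 0.000665), -0.32 for riebeckite fragments (0.00232), -0.09 for tremolite asbestos (0.402) and -0.24 for tremolite fragments (0.0173). The call after tremolite fragments was lost when tremolite fragments library 1, or untreated library 2 or 3 was left out (adjusted p = 0.0517 to 0.0661).

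Tars2, the threonyl enzyme, had 3.48, 3.83 and 3.53 FPKM with riebeckite asbestos, 3.06, 3.29 and 3.44 with its fragments, 3.43, 3.65 and 3.10 with tremolite asbestos, 3.79, 3.71 and 3.05 with its fragments, and 4.2, 4.51 and 4.22 FPKM in untreated cells. No exposed library reached the untreated range, and the log2 fold change was -0.20 for riebeckite asbestos (adjusted p = 0.0321), -0.32 for riebeckite fragments (0.00291), -0.27 for tremolite asbestos (0.0122) and -0.24 for tremolite fragments (0.0233). All but the call after riebeckite fragments depended on single libraries. They were lost after riebeckite asbestos when riebeckite asbestos library 1 or 3, or untreated library 2 or 3 was left out (adjusted p = 0.0565 to 0.105), after tremolite asbestos when tremolite asbestos library 3, or untreated library 2 was left out (adjusted p = 0.0512 to 0.0555), and after tremolite fragments when tremolite fragments library 3, or untreated library 2 was left out (adjusted p = 0.0842 to 0.1).

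Mars2, the methionyl enzyme, had 1.27 ± 0.154 FPKM with riebeckite asbestos, 1.25 ± 0.0694 with its fragments, 1.37 ± 0.0165 with tremolite asbestos, 1.26 ± 0.0657 with its fragments and 1.75 ± 0.220 FPKM in untreated cells (SD, n = 3 each). Exposed libraries, at most 1.40 FPKM, stayed below the untreated ones, at least 1.60 FPKM, and the log2 fold change was -0.27 for riebeckite asbestos (adjusted p = 0.00362), -0.29 for riebeckite fragments (0.00289), -0.21 for tremolite asbestos (0.0289) and -0.28 for tremolite fragments (0.00530). After tremolite asbestos the call was lost when tremolite asbestos library 1, 2 or 3, or untreated library 1 was left out (adjusted p = 0.0643 to 0.118). Its cytosolic counterpart Mars was not called after any particle.

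Hars2 fell by 0.18 after riebeckite asbestos (adjusted p = 0.0159), 0.28 after riebeckite fragments (0.00132) and 0.23 after tremolite asbestos (0.00886), the first lost when riebeckite asbestos library 3 was left out (adjusted p = 0.0505). After tremolite fragments it stood at -0.10. Hars and Hars2 lie head to head on chromosome 18, and their exons overlap on opposite strands over 195 bases. Cars2 fell by 0.24 after tremolite asbestos (adjusted p = 0.00376) and by 0.20 after tremolite fragments (0.00865). After riebeckite it stood at -0.11 after asbestos and -0.12 after fragments, and the fragment value passed the threshold when riebeckite fragments library 3 was left out (adjusted p = 0.0330). Exons of Cars2 overlap Naxd on the opposite strand over 422 bases.

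Pars2, the prolyl enzyme, was near 1 FPKM, with 0.98, 1.23 and 1.31 FPKM with riebeckite asbestos, 1.27, 1.22 and 1.22 with its fragments, 0.742, 0.868 and 0.958 with tremolite asbestos, 0.740, 0.838 and 0.274 with its fragments, and 1.24, 1.14 and 1.02 FPKM in untreated cells. Libraries of both tremolite groups were below all untreated libraries, and tremolite fragment library 3 was the lowest value of the gene. The log2 fold change after tremolite fragments was -0.42 ± 0.11 (SE, adjusted p = 0.0145), lost when untreated library 1 was left out (adjusted p = 0.0533) or in a fit of only the groups compared (adjusted p = 0.0732). Without tremolite fragment library 3 it was -0.25 (adjusted p = 0.0330). After the other particles the fold change of Pars2 was 0.03, 0.07 and -0.20, not called.

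Yars2 and Aars2 rose after riebeckite asbestos. Yars2, the tyrosyl enzyme, had 4.88, 4.36 and 5.21 FPKM with riebeckite asbestos, 3.31, 3.48 and 4.02 with its fragments, 3.92, 4.03 and 3.51 with tremolite asbestos, 3.77, 3.62 and 3.26 with its fragments, and 3.91, 3.87 and 3.51 FPKM in untreated cells. The riebeckite asbestos libraries were the 3 highest of the 15. The log2 fold change was 0.29 ± 0.075 (SE, adjusted p = 0.00737), and after the other particles it stayed between -0.067 and 0.016. Aars2, the alanyl enzyme, had 3.86, 3.49 and 3.52 FPKM after riebeckite asbestos and 2.77, 3.17 and 2.89 FPKM in untreated cells. These did not overlap, and the log2 fold change of 0.23 ± 0.073 (SE, adjusted p = 0.0217) was lost when riebeckite asbestos library 1, or untreated library 1 or 3 was left out (adjusted p = 0.0597 to 0.0838), and when rescaled to the nuclear genes (adjusted p = 0.0629).

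The listed transcripts of Yars2 added up to less than its gene value, and summed they gave a log2 fold change of -0.21 after riebeckite asbestos (adjusted p = 0.5), opposite to the gene value. For Sars the sum gave -0.07 (adjusted p = 0.677). Over 5771 genes with 2 or more listed transcripts, gene values lay within 5% of the length-weighted transcripts for 50.2% of genes and within 5% of the plain sum for 6.84%, so the sums are a limited alternative.

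Cytosolic and mitochondrial enzymes for the same amino acid were set side by side for 15 pairs, with Ears2 and Pars2 both paired with Eprs. After riebeckite asbestos both genes fell in 1 pair (Tars and Tars2), both rose in 1 (Aars and Aars2), and in 1 they moved in opposite directions, with Yars at -0.15 and Yars2 at 0.29. In 6 pairs the cytosolic gene alone was called, with Eprs in 2 of them, in 3 the mitochondrial gene alone, and in 3 neither. Both fell in 2 pairs after riebeckite fragments and after tremolite asbestos (Tars and Hars with their partners) and in 1 after tremolite fragments (Tars and Tars2). Iars and Lars were lower after every particle while Iars2 stood between -0.050 and 0.12 and Lars2 between -0.083 and 0.012, and for Rars and Mars the called member was the mitochondrial one. Whether the partners differ was not tested.

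Fibres and fragments of riebeckite differed for a few members. Riebeckite asbestos libraries had higher levels than riebeckite fragment libraries for 4 cytosolic genes (Aars, Cars, Hars and Nars) and 1 mitochondrial gene (Yars2), and no member was lower, against 6.71% of all genes higher and 3.85% lower. At an unadjusted p under 0.05 limma counted 1 lower member, and 9.78% of all genes were lower at that p. For Nars, 83.3, 84.9 and 84.1 FPKM after asbestos stood against 73.5, 75.8 and 74.6 FPKM after fragments, without overlap, a log2 fold change of 0.17 ± 0.027 (SE, adjusted p = 0.00246). For Aars it was 0.32 ± 0.047 (SE, adjusted p = 0.00132), and both calls were kept without each library in turn.

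For Cars, Hars and Yars2 the log2 fold changes of riebeckite asbestos over riebeckite fragments were 0.19, 0.15 and 0.34 (adjusted p = 0.0207, 0.0249 and 0.0140). The call of Cars was lost when riebeckite asbestos library 1 or 2, or riebeckite fragments library 1 was left out (adjusted p = 0.0649 to 0.0719), that of Hars when riebeckite asbestos library 1 or 2, or riebeckite fragments library 1 or 2 was left out (adjusted p = 0.0592 to 0.0953), and that of Yars2 when riebeckite asbestos library 3, or riebeckite fragments library 1 or 2 was left out (adjusted p = 0.0507 to 0.0517). With TMM factors the adjusted p of Hars was 0.0567. Mars was called higher when riebeckite fragments library 3 was left out (adjusted p = 0.0447) and Wars when riebeckite asbestos library 1 was left out (adjusted p = 0.0220).

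Between tremolite asbestos and tremolite fragments limma called 0 of 36 members, against 0.386% of all genes higher and 0.556% lower, and 4 members at an unadjusted p under 0.05, a threshold that 10.9% of all genes passed. The log2 fold changes ranged between -0.18 and 0.23, and a p that misses the threshold does not show that the particles act alike. The difference of the asbestos effect between the minerals, tested as an interaction, was called for 1 member, Aars, at 0.34 ± 0.066 (SE, adjusted p = 0.0154), against 2.65% of all genes higher and 1.28% lower. Aars was 0.32 in riebeckite and -0.02 in tremolite. Hars2 was called as well when riebeckite fragments library 3 was left out (adjusted p = 0.0424).

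Between the minerals, Aars, Hars and Yars2 were higher and Lars and Rars2 lower after riebeckite asbestos than after tremolite asbestos, against 15.5% and 11.0% of all genes. The log2 fold changes were 0.14, 0.14 and 0.27 for the higher and -0.20 and -0.28 for the lower genes (adjusted p = 0.0487, 0.0158, 0.018, 0.00353 and 0.00847). The calls of Lars and Rars2 were kept without each library in turn. That of Aars was lost when riebeckite asbestos library 1, 2 or 3, or tremolite asbestos library 1 or 2 was left out (adjusted p = 0.0802 to 0.154), that of Hars when riebeckite asbestos library 1, or tremolite asbestos library 1 was left out (adjusted p = 0.0616 to 0.0709), and that of Yars2 when riebeckite asbestos library 1 or 3, or tremolite asbestos library 3 was left out (adjusted p = 0.0565 to 0.0770). Kars was called lower when tremolite asbestos library 1 was left out (adjusted p = 0.0296), and Wars higher when riebeckite asbestos library 1 was left out (adjusted p = 0.0108). The split in the cytosolic set was 2 higher and 1 lower, but 1 higher and 4 lower with TMM factors or quantile normalization and 0 higher and 3 lower when rescaled to the nuclear genes. All genes were split into 13.4% higher and 13.3% lower with TMM factors, 13.5% and 13.4% with quantile normalization, and 12.0% and 11.9% with that rescaling.

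After riebeckite fragments Aars, Cars and Lars were lower and Pars2 higher than after tremolite fragments, against 6.01% of all genes lower and 5.31% higher. The log2 fold changes were -0.20, -0.17 and -0.21 for the lower genes and 0.48 for Pars2 (adjusted p = 0.0146, 0.0323, 0.00535 and 0.0159). The call of Aars was lost when riebeckite fragments library 1, or tremolite fragments library 3 was left out (adjusted p = 0.0638 to 0.0650), that of Cars when riebeckite fragments library 1, or tremolite fragments library 1, 2 or 3 was left out (adjusted p = 0.0528 to 0.12), and that of Pars2 when riebeckite fragments library 1 was left out (adjusted p = 0.0546). Without tremolite fragment library 3 the value of Pars2 was 0.32 (adjusted p = 0.0283). Hars2, at -0.18, was called lower when riebeckite fragments library 3 was left out (adjusted p = 0.0127). Lars was lower after riebeckite than after tremolite both as asbestos and as fragments, by 0.20 and 0.21 on the log2 scale.

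Aars shares exon sequence with a neighbour. Exosc6, which encodes a subunit of the RNA exosome, lies within Aars on the same strand, and all of its 1326 exon bases overlap Aars exons, of which there are 9282 bases, on chr8:111056339-111057664. Exosc6 had 1.75, 1.66 and 1.32 FPKM with riebeckite asbestos, 10.5, 11.0 and 1.67 with its fragments, 11.7, 12.0 and 1.51 with tremolite asbestos, 11.6, 10.7 and 4.31 with its fragments, and 4.74, 1.75 and 12.5 FPKM in untreated cells. It stood low in some libraries and several times higher in others of the same group, and Aars was lower where Exosc6 was high within the riebeckite fragment, tremolite asbestos, tremolite fragment and untreated groups.

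Combining both genes by exon length, an alternative chosen after seeing the data, reduced the SD of the untreated libraries to 0.299 FPKM, against 1.08 FPKM for Aars alone. The combined level was 23.3 ± 0.189 FPKM with riebeckite asbestos, 19.4 ± 0.356 with its fragments, 22.2 ± 0.426 with tremolite asbestos, 22.5 ± 0.349 with its fragments and 20.6 ± 0.299 FPKM in untreated cells (SD, n = 3 each). Against untreated cells its log2 fold change was 0.17, -0.085, 0.10 and 0.12 in this order (adjusted p = 0.000230, 0.0281, 0.0188 and 0.00575), called in all 4, lower only after riebeckite fragments. Riebeckite asbestos over riebeckite fragments gave 0.26 (adjusted p = 0.000157) and the interaction 0.28 (0.00314), while riebeckite over tremolite asbestos gave 0.07 (0.0734) and was no longer called.

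**Figure D4:**
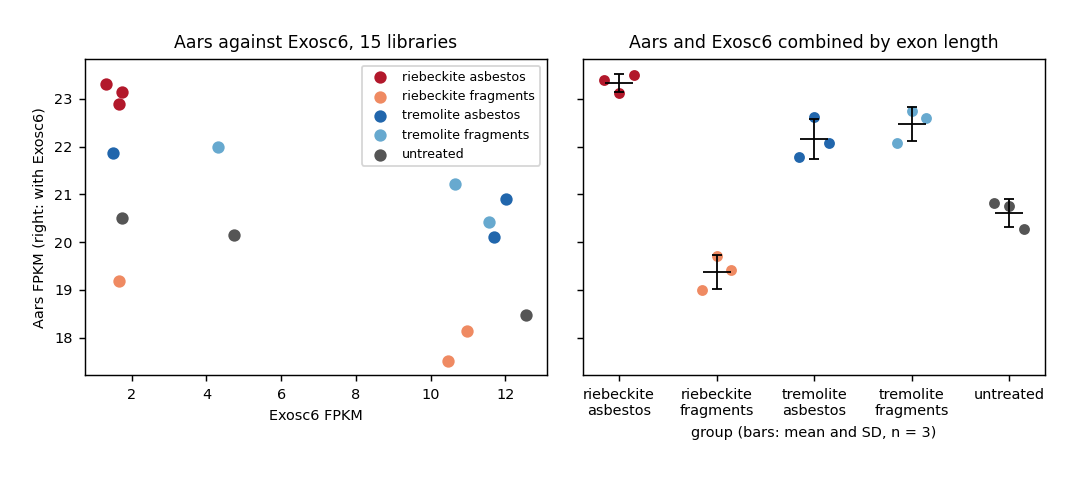
Left, FPKM of Aars (vertical axis) against FPKM of Exosc6 (horizontal axis) in each of 15 libraries, coloured by group. Right, FPKM of the 2 genes combined by exon length in each library, with mean and SD of 3 libraries; the untreated SD is 0.299 FPKM against 1.08 FPKM for Aars alone, and riebeckite asbestos at 23.3 FPKM is highest.

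Genes around the synthetases were read from further lists. The 3 scaffold genes of the multisynthetase complex, Aimp1, Aimp2 and Eef1e1, fell after both riebeckite particles, with log2 fold changes of -0.24, -0.30 and -0.27 after asbestos and -0.25, -0.26 and -0.29 after fragments. After tremolite asbestos 1 of 3 fell (Aimp2, -0.30), and after tremolite fragments 2 of 3 (Aimp2, -0.25, and Eef1e1, -0.33). The shares of all genes lower that are given for the next list apply here as well. Of 19 other genes of tRNA charging, editing and export 4, 6, 4 and 2 fell in the 4 comparisons and none rose. These were 21.1%, 31.6%, 21.1% and 10.5% of the list, where 24.3%, 23.1%, 13.9% and 15% of all genes tested were lower. The tRNA methyltransferase Nsun2 (-0.31, -0.38, -0.27 and -0.28) fell after every particle, as did the threonyl synthetase-like Tarsl2 (-0.47, -0.38, -0.34 and -0.52). The tRNA 3'-end nuclease Elac1 stood at -0.43, -0.40, -0.21 and -0.19 and the exportin Xpo5 at -0.09, -0.22, -0.14 and -0.09.

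Of 27 genes of mitochondrial tRNA charging and translation 2 rose and 14 fell after riebeckite asbestos, and 12, 6 and 4 fell with the other particles in order. The shares that fell were 51.9%, 44.4%, 22.2% and 14.8%, against 24.3%, 23.1%, 13.9% and 15% of all genes. Gatc, a subunit of the amidotransferase that makes mitochondrial glutaminyl-tRNA, fell after all 4 particles (-0.44, -0.43, -0.17 and -0.31). The transcription and ribosome factors Tfb1m (-0.52, -0.25, -0.16 and -0.08) and Tfb2m (-0.26, -0.10, -0.02 and -0.01) and the tRNA modifier Trit1 (-0.43, -0.26, -0.12 and -0.24) were named by the same rule. Of the 13 transcripts of the mitochondrial genome 13, 4, 1 and 0 fell (the same shares of all genes apply), among them mt-Nd3 (-0.52, -0.28, -0.29 and -0.12), mt-Co2 (-0.52, -0.19, -0.13 and -0.11), mt-Co3 (-0.40, -0.16, -0.13 and -0.14) and mt-Cytb (-0.46, -0.11, -0.08 and -0.02).

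Of 18 cytosolic initiation and elongation factors 7, 9, 5 and 7 fell, and 1 rose after riebeckite asbestos. The lower ones were 38.9%, 50%, 27.8% and 38.9% of the list, beside 24.3%, 23.1%, 13.9% and 15% of all genes. Eif2s3x, a subunit of eIF2 (-0.40, -0.37, -0.16 and -0.14), Eef1g (-0.24, -0.28, -0.33 and -0.35) and Eef1b2 (-0.41, -0.27, -0.24 and -0.25), both of the eEF1 exchange complex, fell after every particle, and Eif2s2, another eIF2 subunit, stood at -0.21, -0.14, -0.04 and -0.08. Of 10 MYC and growth genes 6, 8, 8 and 9 fell, read against the same shares, and 1 rose. Myc itself fell by 1.13, 0.97, 0.51 and 0.58 on the log2 scale, Nop16, a nucleolar protein, by 0.35, 0.55, 0.29 and 0.39, and Odc1, the first enzyme of polyamine synthesis, by 0.80, 0.71, 0.72 and 0.73. The gene that rose was Ldha (0.42, 0.14, 0.32 and 0.23).

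Of 17 sensors and regulators of the amino acid response 8, 3, 6 and 8 rose, and 1 fell after riebeckite fragments. The shares that rose were 47.1%, 17.6%, 35.3% and 47.1%, against 21.0%, 15.3%, 10.0% and 12.5% of all genes, so that after riebeckite fragments was near the background. Cebpg, a partner of ATF4 (0.36, 0.30, 0.23 and 0.31), Cebpb (0.76, 0.46, 0.34 and 0.39) and Eif2ak4, the sensor kinase GCN2 (0.40, 0.29, 0.15 and 0.27), rose after every particle, and Atf3 stood at 0.31, 0.05, 0.55 and 0.29, not called after riebeckite fragments. Of 13 targets of the response other than synthetases 2, 1, 3 and 2 rose and 0, 4, 1 and 0 fell. Their risen shares of 15.4%, 7.69%, 23.1% and 15.4% stood beside the same 21.0%, 15.3%, 10.0% and 12.5% of all genes. Their fallen shares of 0%, 30.8%, 7.69% and 0% stood beside 24.3%, 23.1%, 13.9% and 15%. Gdf15 (1.08, 0.72, 0.56 and 0.96) rose after every particle. Asparagine synthetase, Asns, had 4.21, 4.16 and 3.41 FPKM with riebeckite asbestos, 3.85, 3.05 and 3.09 with its fragments, 5.86, 5.53 and 5.87 with tremolite asbestos, 6.49, 6.85 and 6.07 with its fragments, and 4.48, 4.21 and 4.38 FPKM in untreated cells. It was higher after both tremolite particles than in untreated cells, and its log2 fold change was -0.12, -0.31, 0.33 and 0.48, with adjusted p-values of 0.219, 0.00674, 0.00722 and 0.000486. Shmt2 (-0.02, -0.37, -0.18 and -0.14) and Aldh18a1 (-0.16, -0.25, -0.0027 and -0.09), enzymes of glycine and proline synthesis, were not called higher after any particle and fell after riebeckite fragments, Shmt2 after tremolite asbestos as well.

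Of 12 amino acid transporters 5 rose and 4 fell with riebeckite asbestos, 4 and 5 with its fragments, 3 and 3 with tremolite asbestos, and 4 and 4 with its fragments. The higher ones were 41.7%, 33.3%, 25% and 33.3% of the list, against 21.0%, 15.3%, 10.0% and 12.5% of all genes, and the lower ones 33.3%, 41.7%, 25% and 33.3%, against 24.3%, 23.1%, 13.9% and 15%. Slc7a11, the cystine importer, had 5.47, 4.80 and 4.65 FPKM with riebeckite asbestos, 3.93, 3.97 and 4.24 with its fragments, 3.45, 3.78 and 3.50 with tremolite asbestos, 4.33, 4.27 and 3.91 with its fragments, and 2.44, 2.39 and 2.48 FPKM in untreated cells. Every exposed library was above the untreated ones, with log2 fold changes of 0.79, 0.55, 0.41 and 0.59. Slc7a5, which imports leucine (-0.86, -0.60, -0.41 and -0.35), fell after every particle, and Slc38a1 (-0.65, -0.67, -0.18 and -0.13) and the arginine and lysine importer Slc7a1 (-0.33, -0.55, -0.18 and -0.21) fell after both riebeckite particles, Slc7a1 also after tremolite fragments.

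Of 26 interferon response genes 1, 0, 7 and 1 rose and 3, 4, 0 and 1 fell. These were 3.85%, 0%, 26.9% and 3.85% higher and 11.5%, 15.4%, 0% and 3.85% lower, with 21.0%, 15.3%, 10.0% and 12.5% of all genes higher and 24.3%, 23.1%, 13.9% and 15% lower. Named by the rule were Mx1 (-0.91, -0.99, 0.24 and -0.39), Cxcl10 (-0.36, -0.60, 0.25 and -0.07), Bst2 (0.76, 0.38, 0.89 and 0.46) and Irf9 (0.01, 0.02, 0.67 and 0.25). The identity of the cells was checked with 18 macrophage markers, all of which were in the table, and with 28 markers of other cell types, 0 of which were. Of the 19 entries of the macrophage list (Itgam has 2) 10, 9, 8 and 10 rose and 6, 5, 4 and 4 fell, read against the same shares of all genes, among them Siglecf (2.12, 2.27, 1.28 and 1.76), Itgax (0.60, 0.86, 0.32 and 0.46), Csf2rb, a GM-CSF receptor subunit (1.16, 0.90, 0.91 and 1.00), and Mrc1 (-0.80, -0.47, -0.31 and -0.37). Their part in the synthetase values was not tested.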

How the data were processed

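Libraries were made from oligo(dT)-selected RNA with dUTP second strands, per the labels' protocols. The submitters' processing notes name GRCm38, cutadapt, HISAT2 and StringTie. Versions, settings, the annotation release and any use of strand in counting were not given in the sources used here. FPKM per gene and per transcript, normalized by length and library by the authors, were taken as deposited. The headers do not name the unit, which was read from the values, so the depth is unknown and no counting interval can be given. FPKM are relative within a library, so abundant transcripts move the rest.

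Of 10653 genes, the 10616 that reached 0.5 FPKM in 3 or more libraries entered 1 fit of log2(FPKM + 1) over all 15 libraries by group, made with limma (version 3.58.1, R 4.3.3; eBayes with trend) and tested on simulated data. Benjamini-Hochberg adjustment ran over all genes within each of 9 comparisons, with a threshold of 0.05. Members, gene lists and tests were chosen with earlier results of these data known. Values in every library are given for members called against untreated cells with a log2 fold change of at least 0.3 in size in 1 comparison, and for Aars, Cars, Gars, Wars and Yars2 (Sars and Aars2 in 2 groups), chosen after their values were seen. Of each other list the 4 genes at most with the smallest adjusted p against untreated cells are named.

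Alternatives were TMM factors, quantile normalization, no filter, a mean of at least 5 FPKM, a pseudocount of 0.1, no trend, a block for the replicate number, fits of the groups compared alone, sums of transcripts, a minimum size of 0.3, and each library left out. Rescaling to the nuclear genes and combining Aars with Exosc6 were added after seeing the data. Summed FPKM per library ranged between 257329 and 273570. Promoter windows are those of RefSeq on GRCm38.p6, and exon overlaps those of the GENCODE M21 annotation, in which 32 of the 36 members had the deposited position.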

Additional observations from a re-analysis of the deposited data

Results flagged for a closer look

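The difference of the Aars response between the minerals was flagged because the test of the difference itself passed the threshold. Aars was higher after riebeckite asbestos than after riebeckite fragments by 0.32 on the log2 scale, and stood at -0.02 between tremolite asbestos and tremolite fragments. The interaction was 0.34 ± 0.066 (SE), with a limma adjusted p of 0.0154. It was kept without each library in turn. Combined with Exosc6, which overlaps Aars on the same strand, it was 0.28 (adjusted p = 0.00314).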

How the results depend on the processing

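Of 61 calls of members against untreated cells, 42 were kept without each library in turn and 29 under every alternative with no minimum size as well, among them all 4 calls of Dars, Gars and Kars. A minimum size of 0.3 on the log2 scale left 4 cytosolic and 1 mitochondrial genes called after riebeckite asbestos (12 and 6 without it), 5 and 2 after riebeckite fragments (12 and 4), 0 and 0 after tremolite asbestos (8 and 4), and 1 and 1 after tremolite fragments (10 and 5). Between particles it left 1 cytosolic gene of 4 for riebeckite asbestos over riebeckite fragments, 0 of 3 and 0 of 2 mitochondrial genes for riebeckite over tremolite asbestos, and 0 of 3 cytosolic genes for riebeckite over tremolite fragments. A mean of at least 5 FPKM, which leaves 3 mitochondrial genes to test, called 2, 2, 1 and 1 of them in the 4 comparisons with untreated cells in the same order, 0 between the riebeckite particles, and 1 mitochondrial and 5 cytosolic genes between the asbestos minerals. Sums of transcripts called 1, 0 and 1 mitochondrial genes after riebeckite fragments, tremolite asbestos and tremolite fragments, and 0, 1 and 0 between riebeckite particles, asbestos minerals and fragment minerals. In fits of only the groups compared, 3 mitochondrial genes were called after tremolite fragments, 2 cytosolic and 0 mitochondrial between riebeckite particles, 1 and 1 between asbestos minerals, and 1 and 0 between fragment minerals. TMM factors and quantile normalization each called 5 cytosolic genes between the asbestos minerals. A pseudocount of 0.1, no trend, and rescaling to the nuclear genes each called 2 mitochondrial genes between the fragment minerals, the second being Hars2. With each library left out in turn, mitochondrial calls ranged between 2 and 4 after tremolite asbestos and between 3 and 5 after tremolite fragments. The ranges were 2 to 5 cytosolic and 0 to 1 mitochondrial genes between riebeckite particles, 1 to 2 mitochondrial genes between asbestos minerals, 1 to 3 cytosolic and 0 to 2 mitochondrial genes between fragment minerals, and 0 to 1 mitochondrial genes for the interaction.

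Where a call was involved, signs turned only under sums of transcripts. They gave log2 fold changes of -0.071 for Sars, 0.96 for Cars2 (adjusted p = 0.0291) and -0.21 for Yars2 after riebeckite asbestos, 0.075 for Rars2 after riebeckite fragments, 0.38 for Cars2 after tremolite asbestos, 0.19 for Cars2, 0.13 for Rars2 and 0.24 for Tars2 after tremolite fragments, and -0.094 for Yars2 between riebeckite particles. The cause was not tested, for these or for the other changes except where fewer genes were tested. With the replicate number as a block, Tars after tremolite asbestos (adjusted p = 0.0674) and Aars between asbestos minerals (0.0526) were no longer called and Rars after riebeckite fragments was (0.0301). Over 30 pairs of libraries with the same number the deviations correlated between -0.061 and 0.17 (median 0.019), with 4 pairs over 0.1. Over 60 pairs with different numbers they correlated between -0.126 and 0.106 (median -0.016), with 1 pair over 0.1. No label says that the numbers mark a shared batch, so the block was kept as an alternative. Whether the numbers pair the libraries was not tested. The median of all genes moved by at most 0.049 on the log2 scale under any scaling.

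Sequencing depth is unknown and 13 of 16 mitochondrial genes averaged under 5 FPKM, so small differences in that set were not detectable as readily as in the cytosolic set. Genes with overlapping neighbours (Aars, Cars2, Ears2, Fars2, Farsb, Hars, Hars2, Iars2, Mars and Yars) can exchange reads, although the neighbour of Farsb is not among the deposited genes.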

Other observations

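Wars2, the mitochondrial tryptophanyl enzyme, had 2.20, 2.05 and 2.18 FPKM with riebeckite asbestos, 2.18, 2.17 and 2.49 with its fragments, 1.93, 1.67 and 1.62 with tremolite asbestos, 0.482, 1.83 and 2.04 with its fragments, and 2.16, 1.74 and 0.537 FPKM in untreated cells. Tremolite fragment library 1 and untreated library 3 stood apart from the rest of their groups, and the other libraries lay between 1.62 and 2.49 FPKM. No difference was called for Wars2, with a standard error of 0.26 on the log2 scale.

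Ddit3, which encodes the stress factor CHOP and overlaps the end of Mars over 68 exon bases on the opposite strand, had 12.6, 11.5 and 11.2 FPKM with riebeckite asbestos, 11.6, 10.3 and 9.72 with its fragments, 11.6, 14.1 and 13.8 with tremolite asbestos, 11.4, 12.0 and 11.6 with its fragments, and 12.8, 13.1 and 12.7 FPKM in untreated cells. Atf4 had 98.9, 89.1 and 91.7 FPKM with riebeckite asbestos, 83.8, 78.7 and 79.3 with its fragments, 81.1, 86.8 and 82.6 with tremolite asbestos, 86.0, 87.0 and 82.9 with its fragments, and 80.9, 75.9 and 71.6 FPKM in untreated cells. Its exposed libraries were mostly above the untreated ones, with the highest values after riebeckite asbestos.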
